A study of Mus musculus with 6 samples.

Results

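Interferon-stimulated genes are the genes that cells switch on when interferon binds its receptors, and 34 of them were followed here in mouse Eµ-Myc lymphoma cells with and without the miR-17~92 microRNA cluster. The 34 were chosen by name as targets of type I or type II interferon, and each was found in the deposited count table by mapping its gene number to its symbol. All 34 had a row among the 24885 rows of the table, and all 34 had at least 1 count. Eµ-Myc cells are B-cell lymphoma cells driven by a Myc transgene under an immunoglobulin heavy chain enhancer. Both groups carried Cre-ERT2, a recombinase that 4-hydroxytamoxifen (4-OHT) activates, and floxed alleles of the cluster (Cre-ERT2+;miR-17~92 fl/fl). The del group (3 libraries) had received 250 nM 4-OHT for 4 days and was then subcloned to obtain cells lacking the cluster, and the fl group (3 libraries) kept the floxed alleles. All cells were grown for 48 hours on irradiated Ink4a-null mouse embryonic fibroblasts. Whether the replicates of a group were separate cultures or clones is not stated, so p-values measure only the spread between these 6 libraries, which may be technical. Deletion, 4-OHT exposure and subcloning go together in this design and cannot be told apart.

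Type I interferons signal through the receptor chains IFNAR1 and IFNAR2, the kinases JAK1 and TYK2 and a complex that contains STAT2 and IRF9, which binds the interferon-stimulated response element (ISRE) in promoters. Type II interferon (interferon gamma) signals through its own receptor, JAK1 and JAK2, and acts on promoters through the gamma-activated sequence (GAS). The products sense viral RNA, block its translation or its copying, tag proteins with ISG15 or attack the vacuoles that shelter pathogens, and many are also kept at a low level in unstimulated blood cells.

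The libraries held 3738720, 2121796 and 3592196 counts in del and 9580630, 8895138 and 6554423 counts in fl, so depth goes with group. Of 10260 genes tested across the table, 6676 (65.1%) passed an adjusted p of 0.05, and the first principal component, which held 89.9% of the variance, separated the groups. Markers of several cell types differed as well. The summed level of 19 B cell markers was 1684 to 1955 CPM (a gene's counts per library, scaled to equal totals with TMM factors) in del and 127 to 144 CPM in fl. All 16 of those markers that were tested were higher in del. Pax5 averaged 75.3 CPM in del and 2.98 CPM in fl, and Rag1 averaged 24.3 CPM in del and was at 0 in fl, as was Igll1, which had only 5 counts in del. Other B cell markers were well above 0 in fl, with Btk at a mean of 118 CPM in del and 48.2 CPM in fl and Blnk at 169.9 CPM in del and 26.0 CPM in fl. Summed levels were 3146 to 3984 CPM in del and 432 to 477 CPM in fl for 14 myeloid markers (8 higher and 2 lower of 10 tested), of which Mpo and S100a9 were at 0 in both groups. Cybb averaged 1470 CPM in del and 1.97 CPM in fl, and Lyz2 454 CPM in del and 0.371 CPM in fl. The 2 lower in del were Cd14 and Elane. Fcer1g alone made up most of the myeloid sum in fl (mean 391 CPM in fl, 599 CPM in del). For 12 dendritic cell markers (3 higher and 2 lower of 7 tested), a list that includes the member Bst2, the sums were 664.5 to 816 CPM in del and 299.5 to 335 CPM in fl, with Clec9a and Ccr9 at 0 in both groups. Tcf4 alone made up most of both sums (mean 565 CPM in del, 239 CPM in fl), while Bst2 and Batf3 were lower in del. The sums were 99.95 to 121 CPM in del and 38.6 to 43.0 CPM in fl for 12 T and NK cell markers (1 higher and 2 lower of 3 tested), with Cd3e, Cd8a, Nkg7 and Ncr1 at 0 in both groups. Most of the del sum was Cd2 (mean 104.7 CPM in del, 13.1 CPM in fl). Cd5 (3.30 CPM in del, 23.3 CPM in fl) and Lck (0 in del, 3.24 CPM in fl) went the other way. For 17 fibroblast markers (3 higher of 5 tested), genes that the feeder layer expresses, the sums were 18.96 to 41.7 CPM in del and 3.33 to 12.0 CPM in fl, with Lum at 0 in both groups. They were 0.474 to 1.32 CPM in del and 371 to 411 CPM in fl for 9 epithelial markers (3 lower of 3 tested), with Cdh1, Cldn3 and Cldn7 at 0 in both groups. Most of the fl sum came from Krt18 (mean 214 CPM in fl, 0.606 CPM in del) and Epcam (170 CPM in fl, 0.176 CPM in del). The part of these differences in the results below was not tested, and fewer cells of a type and less RNA per cell cannot be told apart in bulk RNA.

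Among the 34 interferon-stimulated genes, 18 were higher in del and 2 were lower, 12 were tested without passing the threshold, and Zbp1 and Gbp2 had too few counts to be tested (edgeR's quasi-likelihood F test, Benjamini-Hochberg adjusted over all genes). Across all genes tested, 32.5% were higher and 32.6% lower in del, so the 18 higher members (52.9% of those listed) stand above the share for all genes and the 2 lower ones (5.88%) well below it. The members were chosen with earlier results of these data known, so these shares are a description and not a test. At least 2-fold differences were seen in 14 members, all higher in del, against 21.4% of all genes tested that were higher and 15.9% that were lower by that much. The median log2 fold change (del minus fl) of the 32 tested members was 0.85, against -0.0035 for all genes tested. With no count filter, which keeps all 34, the median was 0.75 against -0.09 for all genes, and 26 of the 34 had a positive value, as had 47.7% of all genes. In that fit 17 members were higher and 2 lower, and 23.7% of all genes were higher and 25.7% lower. Of the tested members, Ifit3, Oas1a, Mx2 and Cmpk2 passed the count filter only through the del libraries, Cxcl10 only through the fl libraries and Isg15 through neither group alone, so the tested counts include genes that had to be high in one group to be tested at all.

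Few reads stood behind most members. Averages stayed under 10 CPM in both groups for 16 of the 34 members, and a mean of 30 CPM or more was reached by 8 members in del and by 1, Bst2, in fl. CPM set the precision of a value here and are not compared between genes. The values of all members together summed to 771, 809 and 802 CPM in the del libraries, against 372, 321 and 289 CPM in the fl libraries. Much of that sum in del came from Parp14 and Trim30a, and without them the sums averaged 531 ± 28.7 CPM in del and 315 ± 39.8 CPM in fl (SD, n = 3 each). The del and fl values did not overlap for 22 members, 19 with del above and 3 with del below, where 34.2% of all genes tested had del above and 35.7% had del below. Within the fl group, replicate 1 held the highest value of 22 members and replicate 3 the lowest value of 17.

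**Figure D1:**
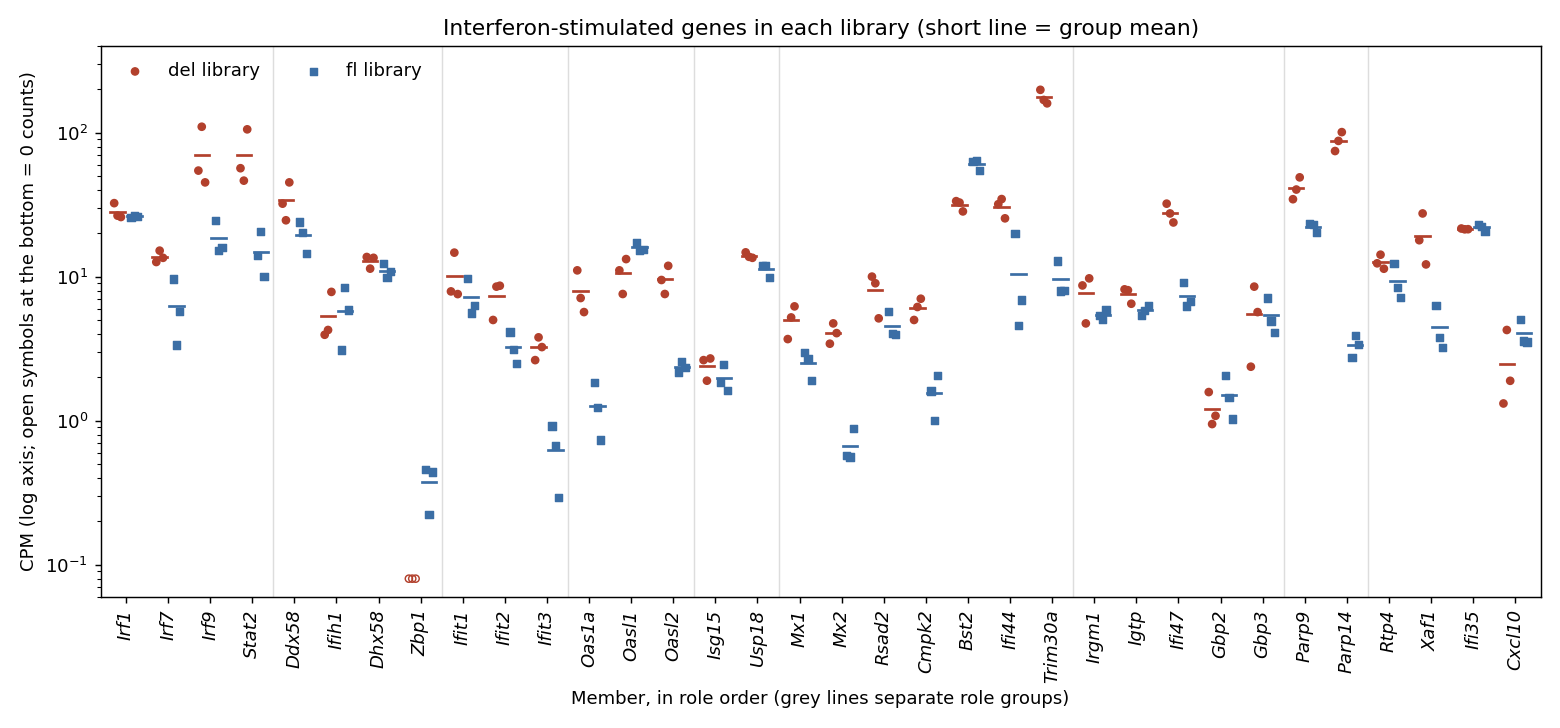
CPM of each of the 34 members (log axis) in the 3 del libraries (circles) and the 3 fl libraries (squares), with the group mean as a short line and 0 counts as open symbols at the bottom. Trim30a and Parp14 show the widest separation with del above, Bst2 lies lower in del, and Irf1 and Ifi35 lie at the same height in both groups.

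The promoters of 7 members are shown to set the response elements beside the values, since these genes share ISRE matches or a GAS match but behaved differently. Each is the 170 bases before the start site of the RefSeq promoter window (build GRCm38.p6), 5′ to 3′ along the gene, with matches in capitals. The motifs searched were the ISRE core, written here as GAAA, any 2 bases, GAAA, on either strand (the other strand reads TTTC, any 2 bases, TTTC), and GAS, TTC, any 3 bases, GAA, which reads the same on both strands. Isg15 lies at chr4:156200819-156200988 (minus strand) with 3 overlapping ISRE cores, Ifit1 at chr19:34640719-34640888 (plus strand) with 2, and Ifit3 at chr19:34583359-34583528 (plus strand) with 2. Oas1a lies at chr5:120907526-120907695 (minus strand) with 2 overlapping cores and a GAS match further upstream. Bst2 lies at chr8:71537473-71537642 (minus strand), where a GAS match overlaps the first of 2 overlapping cores. Irf1 lies at chr11:53769844-53770013 (plus strand) with a GAS match and no ISRE core, and Trim30a at chr7:104465194-104465363 (minus strand) with 1 core in the stretch shown.
Isg15: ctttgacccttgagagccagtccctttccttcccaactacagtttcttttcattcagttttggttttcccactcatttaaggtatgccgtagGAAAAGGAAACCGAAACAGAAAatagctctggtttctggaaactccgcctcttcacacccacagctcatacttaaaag
Ifit1: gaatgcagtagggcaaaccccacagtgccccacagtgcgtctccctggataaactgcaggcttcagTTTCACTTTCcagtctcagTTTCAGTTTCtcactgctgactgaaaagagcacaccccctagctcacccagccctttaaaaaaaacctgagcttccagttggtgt
Ifit3: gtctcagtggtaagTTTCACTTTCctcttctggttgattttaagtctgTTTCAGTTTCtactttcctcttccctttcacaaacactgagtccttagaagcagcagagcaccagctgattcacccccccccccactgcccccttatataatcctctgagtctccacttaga
Oas1a: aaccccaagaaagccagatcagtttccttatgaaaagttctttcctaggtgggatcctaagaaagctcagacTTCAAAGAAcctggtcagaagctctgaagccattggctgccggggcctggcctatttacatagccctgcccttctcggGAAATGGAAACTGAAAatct
Bst2: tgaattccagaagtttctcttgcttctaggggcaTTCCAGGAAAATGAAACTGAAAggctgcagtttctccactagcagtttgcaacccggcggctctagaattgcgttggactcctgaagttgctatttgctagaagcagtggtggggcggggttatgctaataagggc
Irf1: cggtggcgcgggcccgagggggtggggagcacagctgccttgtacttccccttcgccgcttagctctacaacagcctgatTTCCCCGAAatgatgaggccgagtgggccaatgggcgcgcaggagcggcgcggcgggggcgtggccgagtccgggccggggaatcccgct
Trim30a: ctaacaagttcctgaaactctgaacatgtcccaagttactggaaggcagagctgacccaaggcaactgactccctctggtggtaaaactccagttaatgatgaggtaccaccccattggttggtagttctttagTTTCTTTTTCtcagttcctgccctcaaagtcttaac
A match is a run of letters, and binding was not measured.

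Promoter windows of 300 bases (250 before to 50 after the start) were found in RefSeq for 26 of the 34 members. None was found for Parp14, Parp9, Mx1 and Mx2, which were higher in del. Usp18, Rtp4 and Dhx58, which did not pass, and Zbp1, which was not tested, had none either. An ISRE core was present in 15 of the 26 (57.7%) and in 1079 of 27025 RefSeq genes with a window (3.99%), and a GAS match in 6 of the 26 (23.1%) and in 2582 of the 27025 (9.55%). Members that rose in del held an ISRE core in 6 of 14 windows (42.9%), and members tested without passing the threshold in 7 of 9 (77.8%). GAS matches were present in 2 of the 14 windows and 3 of the 9. Of the 2 members that fell, Bst2 held both motifs and Oasl1 neither. The 85 other interferon-induced genes of a wider list, of which 69 had a window, held an ISRE core in 33 (47.8%). As counts with no test, both motifs were more common in members' windows than in those of all genes, while the ISRE core was in a smaller share of the windows of members that rose than of members that did not pass. Those shares leave out members without a window, and an element with a gap other than 2 bases counts as no match. Isg15, with its 3 overlapping cores 66 to 78 bases before the start, and Ifit1, with cores 104 and 85 bases before it, are among the members that did not pass.

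**Figure D2:**
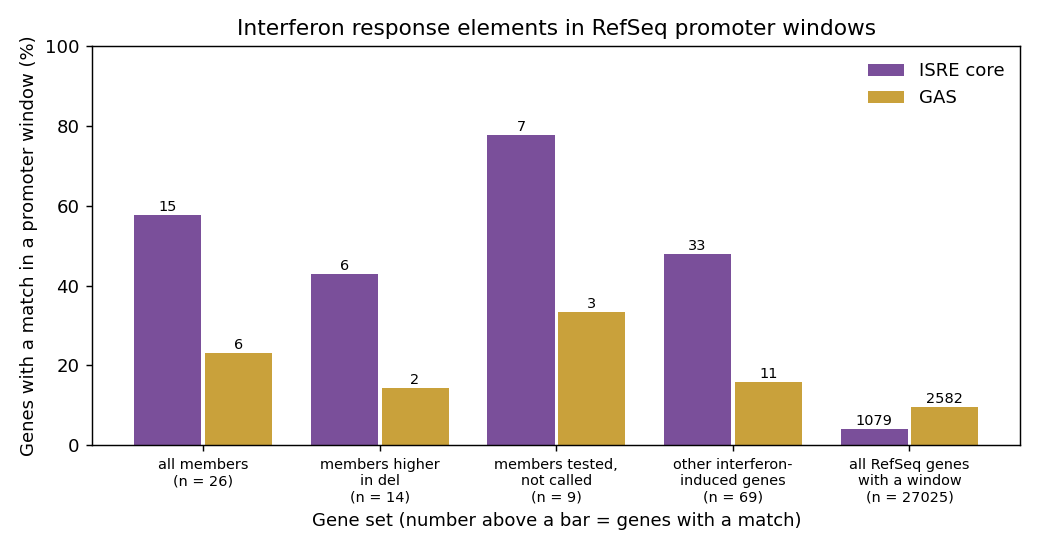
Percent of genes whose RefSeq promoter window holds an ISRE core or a GAS match, for members, for members by outcome, for other interferon-induced genes and for all RefSeq genes with a window, with the number of genes above each bar. The ISRE bar of members is at 57.7%, against 3.99% for all genes, and that of members higher in del (42.9%) is below that of members not called (77.8%).

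Of the 4 transcription factors, 3 rose in del. Stat2, the STAT that is specific to type I and type III signalling, was at 56.6, 46.4 and 105 CPM in the del libraries, against 14.1, 20.5 and 9.97 CPM in the fl libraries. Every del library exceeded every fl library, and replicate 3 was the highest of del and the lowest of fl. The difference was 4.69-fold (log2 fold change 2.23 ± 0.35 SE, adjusted p = 0.000485). Irf9, the DNA-binding subunit of the same complex, was at 54.5, 109.9 and 45.1 CPM in del, against 24.7, 15.2 and 15.98 in fl. The groups did not overlap, and del replicate 2 stood well above the other del libraries, in a gene whose exons overlap those of Rnf31 on the same strand (log2 fold change 1.88 ± 0.34, adjusted p = 0.00117). Irf7, the factor that amplifies interferon alpha production, was at 12.6, 15.2 and 13.5 CPM in del, against 9.63, 3.36 and 5.72 in fl. Here the del libraries lay close together and the fl libraries spread 2.87-fold (log2 fold change 1.12 ± 0.34, adjusted p = 0.0171), and the adjusted p was 0.0542 without del replicate 2 and 0.053 without del replicate 3. Irf1, the early factor downstream of interferon gamma, was at 32.4, 26.5 and 26.0 CPM in del, against 25.7, 26.7 and 26.1 in fl. Its groups overlapped and it did not pass the threshold (log2 fold change 0.12 ± 0.14, adjusted p = 0.483).

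Of the 4 nucleic acid sensors, 1 rose. Ddx58, which encodes the RNA sensor RIG-I, was at 32.1, 24.6 and 45.1 CPM in del, against 24.0, 20.1 and 14.5 in fl. The groups did not overlap, but del replicate 2 and fl replicate 1 nearly met (log2 fold change 0.81 ± 0.25, adjusted p = 0.0165), and the adjusted p was 0.0723 without del replicate 3 and 0.0501 without fl replicate 3. Ifih1, which encodes the sensor of long double-stranded RNA MDA5, was at 3.95, 4.26 and 7.84 CPM in del, against 3.10, 8.39 and 5.86 in fl, with full overlap (log2 fold change -0.08 ± 0.42, adjusted p = 0.877). Dhx58, which encodes the regulator LGP2, was at 13.7, 11.4 and 13.5 CPM in del, against 12.4, 9.85 and 10.8 in fl, also with overlap (log2 fold change 0.24 ± 0.17, adjusted p = 0.247). Zbp1, the Z-nucleic acid sensor, had no count in del and 9 counts over the 3 fl libraries (0.459, 0.224 and 0.440 CPM). A count of 0 in del allows up to 0.312 CPM over the group at 3 counts, against a pooled 0.368 CPM in fl, so a difference was barely detectable at this depth. Such floors and intervals cover counting error only.

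The IFIT genes encode proteins that bind viral RNA ends and lie side by side on chromosome 19. Ifit2 was at 5.004, 8.53 and 8.65 CPM in del, against 4.13, 3.13 and 2.49 in fl, and Ifit3 at 2.63, 3.79 and 3.24 CPM in del, against 0.917, 0.671 and 0.293 in fl. Neither gene's groups overlapped. Both rose, Ifit2 by 2.20-fold (log2 fold change 1.14 ± 0.30, adjusted p = 0.00799) and Ifit3 by 4.70-fold (log2 fold change 2.23 ± 0.42, adjusted p = 0.00125), the second on 30 counts over the del group and 16 over the fl group. Of Ifit3's 3′ end, 14.9% of 50-base windows also occur in its copy Ifit3b, so its reads may be split between them. Ifit1 was at 7.90, 14.7 and 7.57 CPM in del, against 9.75, 5.595 and 6.30 in fl. Its del replicate 2 was the highest of all 6 libraries and the other values overlapped (log2 fold change 0.39 ± 0.31, adjusted p = 0.293). The OAS family makes or resembles enzymes that make the oligoadenylate signal for RNase L. Oas1a was at 11.1, 7.11 and 5.68 CPM in del, against 1.83, 1.23 and 0.733 in fl, with the lowest del library above the highest fl library (log2 fold change 2.61 ± 0.38, adjusted p = 0.000264). Since 56.1% of the windows of its 3′ end are shared with Oas1g, that value is uncertain. Oasl2 was at 9.48, 7.58 and 11.9 CPM in del, against 2.18, 2.57 and 2.35 in fl. The fl libraries were close together and lay far below del (log2 fold change 2.05 ± 0.24, adjusted p = 7.95e-05). Oasl1, its neighbour, was at 11.1, 7.58 and 13.2 CPM in del, against 17.3, 15.2 and 15.4 in fl, lower in every del library (log2 fold change -0.54 ± 0.20, adjusted p = 0.034). That call was lost in 7 of the 15 alternative settings, with adjusted p of 0.059 to 0.0891. The 2 genes for ISG15 conjugation did not pass. Isg15, the ubiquitin-like modifier, was at 2.63, 1.89 and 2.70 CPM in del, against 1.83, 2.46 and 1.61 in fl (log2 fold change 0.32 ± 0.33, adjusted p = 0.439). Usp18, which removes ISG15 and restrains the type I receptor, was at 14.7, 13.7 and 13.5 CPM in del, against 11.9, 12.0 and 9.82 in fl. The Usp18 groups did not overlap, yet the adjusted p was 0.116 (log2 fold change 0.31 ± 0.16).

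Of the 7 other antiviral effectors, 6 rose and 1 fell. Trim30a, a TRIM protein that restrains NF-kB signalling in mice, was at 198, 169 and 159.8 CPM in del, against 12.8, 7.94 and 8.06 in fl. Every del library was far above every fl library (18.2-fold, log2 fold change 4.18 ± 0.22, adjusted p = 7.95e-07). Mx2, a dynamin-like GTPase, was at 3.42, 4.74 and 4.05 CPM in del, against 0.573, 0.560 and 0.880 in fl, on 38 counts in del and 16 in fl (log2 fold change 2.56 ± 0.35, adjusted p = 0.000189). Its neighbour Mx1, another gene of the Mx family, was at 3.69, 5.21 and 6.22 CPM in del, against 2.98, 2.69 and 1.91 in fl. Neither Mx gene overlapped between the groups, and Mx1 also passed (log2 fold change 0.96 ± 0.30, adjusted p = 0.0187; 0.108 without del replicate 3 and 0.0533 without fl replicate 3). Rsad2, which encodes viperin, and Cmpk2, the nucleotide kinase beside it, span 37095 bases of chromosome 12. Cmpk2 was at 5.004, 6.16 and 7.03 CPM in del, against 1.61, 1.01 and 2.05 in fl, without overlap (log2 fold change 1.98 ± 0.32, adjusted p = 0.000503). Rsad2 was at 10.0, 9.001 and 5.14 CPM in del, against 5.73, 4.03 and 3.96 in fl. Its del replicate 3 lay below fl replicate 1 (log2 fold change 0.79 ± 0.29, adjusted p = 0.039), and it lost its call in 6 alternative settings, with adjusted p of 0.0639 to 0.206. Ifi44, an interferon-induced protein with a GTP-binding motif, was at 31.9, 34.6 and 25.4 CPM in del, against 19.95, 4.59 and 6.89 in fl. The del libraries were alike, while fl replicate 1 stood 4.35-fold above fl replicate 2 (log2 fold change 1.52 ± 0.46, adjusted p = 0.0169; 0.0526 without del replicate 1 and 0.0525 without del replicate 2). Without fl replicate 1 the log2 fold change of Ifi44 was 2.41 (adjusted p = 4.09e-05). Bst2, tetherin, which holds budding virions at the cell surface, went the other way. It was at 33.4, 32.7 and 28.4 CPM in del, against 62.7, 64.2 and 54.8 in fl, and each del library was below each fl library (log2 fold change -0.95 ± 0.14, adjusted p = 0.000307).

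Of the 5 interferon-inducible GTPases, which act on the vacuoles of intracellular pathogens, 1 rose. Ifi47 (IRG-47) was at 32.1, 27.5 and 23.8 CPM in del, against 9.06, 6.27 and 6.74 in fl, with no overlap (log2 fold change 1.91 ± 0.20, adjusted p = 3.44e-05). Its exons overlap those of Olfr56 on the same strand, as those of Igtp overlap Irgm2, so reads of these pairs may be mixed. The regulatory GTPase Irgm1 was at 8.69, 4.74 and 9.73 CPM in del, against 5.39, 5.04 and 5.86 in fl, and Igtp (Irgm3) was at 8.16, 8.05 and 6.49 CPM in del, against 5.39, 5.82 and 6.30 in fl. Irgm1 overlapped because of del replicate 2 and Igtp did not overlap, and neither passed (adjusted p = 0.07 for Irgm1, 0.138 for Igtp). Without del replicate 2, Irgm1 had a log2 fold change of 0.77 and an adjusted p of 0.0138. The guanylate-binding protein gene Gbp3 was at 2.37, 8.53 and 5.68 CPM in del, against 7.11, 4.92 and 4.11 in fl, with full overlap (log2 fold change -0.08 ± 0.40, adjusted p = 0.862). Gbp2 had 12 counts over del (1.58, 0.947 and 1.08 CPM) and 38 over fl (2.06, 1.45 and 1.03 CPM) and was not tested.

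Both ADP-ribosylation genes rose. Parp14, a mono-ADP-ribosyltransferase, was at 74.5, 87.6 and 101 CPM in del, against 2.75, 3.92 and 3.37 in fl. This 26.0-fold difference was the largest of the tested members, and the del and fl ranges were far apart (log2 fold change 4.70 ± 0.20, adjusted p = 2.37e-07). Parp9, which works in a complex with the ubiquitin ligase DTX3L, was at 34.5, 40.3 and 48.9 CPM in del, against 23.5, 23.2 and 20.2 in fl, again with no overlap (log2 fold change 0.88 ± 0.16, adjusted p = 0.00111). Of the 4 remaining members 1 rose. Xaf1, which antagonises the inhibitor of apoptosis XIAP, was at 17.9, 27.5 and 12.2 CPM in del, against 6.31, 3.80 and 3.23 in fl (4.09-fold, log2 fold change 2.03 ± 0.34, adjusted p = 0.000686). The del libraries differed 2.26-fold among themselves and still lay above all fl libraries. Rtp4, a receptor transporter protein, was at 12.4, 14.2 and 11.4 CPM in del, against 12.3, 8.39 and 7.18 in fl (log2 fold change 0.42 ± 0.23, adjusted p = 0.144). Its single overlap came from fl replicate 1, without which the log2 fold change was 0.67 and the adjusted p 0.0194. Ifi35, which binds the partner protein NMI, was at 21.6, 21.3 and 21.4 CPM in del, against 23.2, 22.4 and 20.5 in fl (log2 fold change -0.04 ± 0.13, adjusted p = 0.801). The chemokine gene Cxcl10, which attracts CXCR3-bearing T cells, was at 1.32, 4.26 and 1.89 CPM in del, against 5.05, 3.58 and 3.52 in fl. Its del replicate 2 lay within the fl range, and it did not pass (log2 fold change -0.87 ± 0.40, adjusted p = 0.0823). Without del replicate 2 its log2 fold change was -1.34 and its adjusted p 0.0183.

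**Figure D3:**
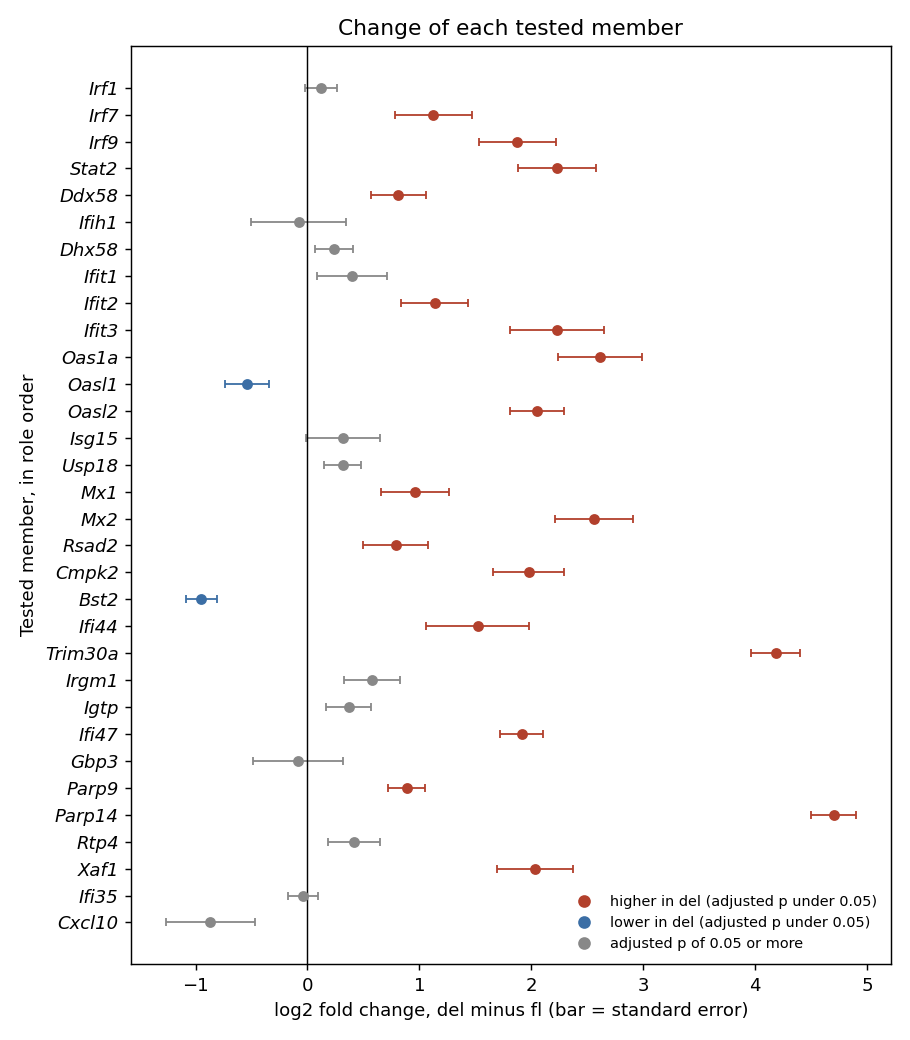
Log2 fold change (del minus fl) of the 32 tested members in role order, with standard errors from edgeR's quasi-likelihood test, coloured by outcome. Parp14 (4.70) and Trim30a (4.18) stand to the right of all other members, and Bst2 (-0.95) and Oasl1 (-0.54) are those called lower in del, while Cxcl10 (-0.87) did not pass.

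The genes upstream and around the members were taken from 6 lists of 157 genes, of which 109 were tested, 58 were higher in del and 15 lower (median log2 fold change 0.76). These are 36.9% and 9.55% of those listed, against 32.5% higher and 32.6% lower among all genes tested. The bases differ, since the listed genes include 48 that were not tested, 27 of them without a count. Among tested genes alone, 58 of 109 were higher and 15 of 109 lower, against 3333 and 3343 of 10260 across the table. The median log2 fold change of all genes tested was -0.0035. Of the 109 tested genes of the lists, 12 passed the count filter only through del and 4 only through fl. Of 18 interferon genes, 17 had no count in any library and the other, Ifna12, had 11 counts over del and 16 over fl, so none was tested. Of 10 genes of the receptors and of JAK-STAT signalling, 5 rose (50.0%, against 32.5% of all genes tested) and none fell. Jak1, a kinase of both receptor types, was at 369, 561 and 473 CPM in del, against 139, 121 and 124 in fl (log2 fold change 1.87 ± 0.18). Every del library was above every fl library for Jak1. The kinase gene Tyk2 was at 18.4, 10.9 and 16.8 CPM in del, against 7.80, 7.83 and 8.21 in fl, and the receptor gene Ifnar1 at 37.4, 44.5 and 49.7 CPM in del, against 29.4, 21.3 and 20.2 in fl. Both rose (log2 fold change 0.99 ± 0.20 for Tyk2 and 0.89 ± 0.19 for Ifnar1).

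Of 9 other IRF and IRF-binding genes, 6 rose (66.7%, against 32.5% of all genes tested) and none fell. Irf8, a factor of B cells and myeloid cells, was at 214, 293 and 155 CPM in del, against 20.9, 20.3 and 20.2 in fl (log2 fold change 3.43 ± 0.23). Irf4, a factor of lymphocyte activation and plasma cells, was at 33.4, 31.7 and 24.3 CPM in del, against 3.55, 2.91 and 2.93 in fl (log2 fold change 3.23 ± 0.20). Both were far above fl in every del library. Both are also genes of blood cell lineages, whose markers moved with the groups as given above. Irf2, which competes with IRF1, and the co-repressor gene Irf2bp2 rose too (log2 fold change 1.79 ± 0.20 and 2.31 ± 0.19). Of 17 adaptors and kinases of nucleic acid sensing, 6 rose (35.3%, close to the share of all genes tested) and 3 fell. Unc93b1, the chaperone of endosomal Toll-like receptors, was at 228, 219.8 and 227 CPM in del, against 48.8, 47.3 and 46.5 in fl, and Ticam1, the adaptor TRIF, at 4.74, 5.68 and 3.24 CPM in del, against 22.4, 25.8 and 15.5 in fl. They moved in opposite directions (log2 fold change 2.24 ± 0.13 for Unc93b1 and -2.27 ± 0.28 for Ticam1). The DNA sensor gene Cgas and the adaptor gene Traf3 rose (log2 fold change 1.19 ± 0.19 for Cgas and 1.13 ± 0.19 for Traf3).

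Of 18 brakes on the pathway, 8 rose (44.4%) and 2 fell (11.1%), against 32.5% and 32.6% of all genes tested. Trex1, the exonuclease that clears cytosolic DNA, was at 32.4, 24.2 and 23.5 CPM in del, against 4.70, 7.83 and 4.55 in fl (log2 fold change 2.22 ± 0.24). Rnaseh2c, a subunit of RNase H2, was at 35.0, 38.4 and 27.3 CPM in del, against 159, 172 and 151 in fl (log2 fold change -2.27 ± 0.16). Loss of either enzyme is known to raise interferon-stimulated genes in mice and people, and here their transcripts moved in opposite directions. The phosphatase gene Ptpn6, abundant in blood cells, and Pias1, an inhibitor of STAT signalling, rose (log2 fold change 2.01 ± 0.23 and 1.44 ± 0.14).

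Of 85 other interferon-induced genes, 59 were tested, 33 rose (38.8% of those listed) and 10 fell (11.8%). The shares of all genes tested were 32.5% higher and 32.6% lower, on a base that leaves out untested genes. The list also holds Isg20l2 and Bst1, which are not established interferon targets. Ifitm3, which blocks virus entry, was at 27.1, 30.3 and 22.4 CPM in del, against 1.03, 0.671 and 1.03 in fl (log2 fold change 4.84 ± 0.24). Lgals9, which encodes galectin-9, was at 171, 163 and 153 CPM in del, against 9.98, 6.38 and 5.57 in fl (log2 fold change 4.46 ± 0.22). Both were higher in del than any fl library by a wide margin. Isg20, an exonuclease that degrades viral RNA, was at 12.9, 10.9 and 10.0 CPM in del, against 459.7, 439 and 371 in fl. This was 37.4-fold lower in del (log2 fold change -5.22 ± 0.19, adjusted p = 1.21e-07), larger than the fold of any member in either direction. Plscr1, which encodes an interferon-induced scramblase, had 0 counts over del and 103 over fl, at least 13.5-fold lower when 0 is set to a group floor of 3 counts.

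**Figure D4:**
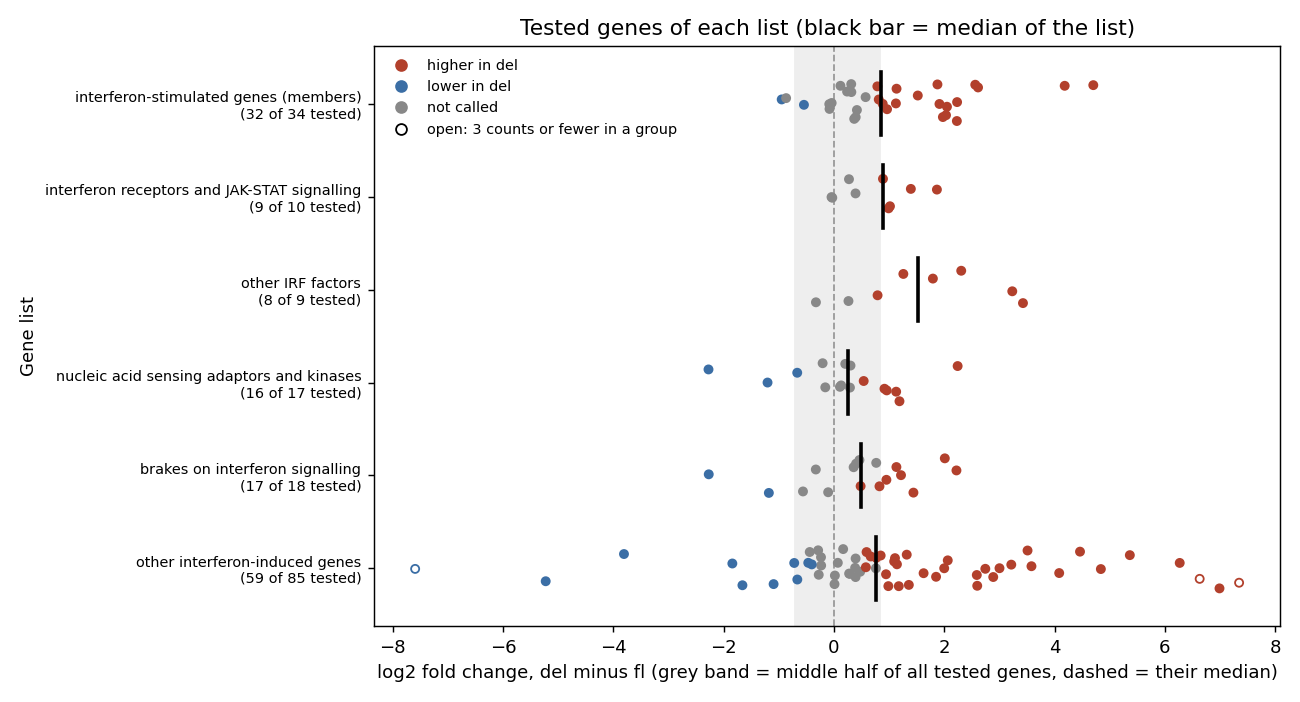
Log2 fold change (del minus fl) of every tested gene of the members' list and of the 5 wider lists with tested genes, with each list's median as a black bar and the interquartile range of all tested genes as a grey band. Open points rest on 3 counts or fewer in a group, so that their fitted values are uncertain, and the medians of the lists run from 0.25 (adaptors and kinases) to 1.53 (other IRF factors).

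Several members lie in clusters of related genes, where neighbours can be compared (coordinates of GRCm38, which mm10 represents). The Trim30a cluster spans chr7:104244448-104507853. Trim12c was at 102, 112 and 92.5 CPM in del, against 13.4, 10.2 and 9.09 in fl, and Trim12a at 21.1, 15.2 and 19.2 CPM in del, against 2.06, 1.57 and 1.17 in fl. These 2 genes and Trim34a rose along with Trim30a (log2 fold change 3.21 ± 0.18 for Trim12c, 3.51 ± 0.24 for Trim12a and 2.06 ± 0.35 for Trim34a). Trim30d had 162 counts over del and 2 over fl, a ratio of 206.4 with a 95% exact counting interval of 56.22 to 1719. All 5 tested genes of this cluster were thus higher in del. At chr16:35831892-35972621, Dtx3l lies between Parp14 and Parp9 and was at 74.5, 75.3 and 73.5 CPM in del, against 30.2, 20.3 and 21.8 in fl. All 3 genes rose (log2 fold change 4.70 ± 0.20 for Parp14, 1.63 ± 0.17 for Dtx3l and 0.88 ± 0.16 for Parp9). Dtx3l and Parp9 overlap on opposite strands. In the Oas cluster (chr5:120730333-120907544), Oas2 was at 16.9, 11.8 and 11.1 CPM in del, against 2.29, 2.01 and 2.35 in fl, and Oas3, the gene next to it, at 6.58, 4.26 and 6.49 CPM in del, against 5.39, 5.82 and 5.86 in fl. Oas2 rose (log2 fold change 2.59 ± 0.24, adjusted p = 2.2e-05) and Oas3 did not pass (log2 fold change 0.07 ± 0.22, adjusted p = 0.794). Differences in outcome between these neighbours were not tested. In the Oasl pair (40986 bases), Oasl2 was higher and Oasl1 lower in del.

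**Figure D5:**
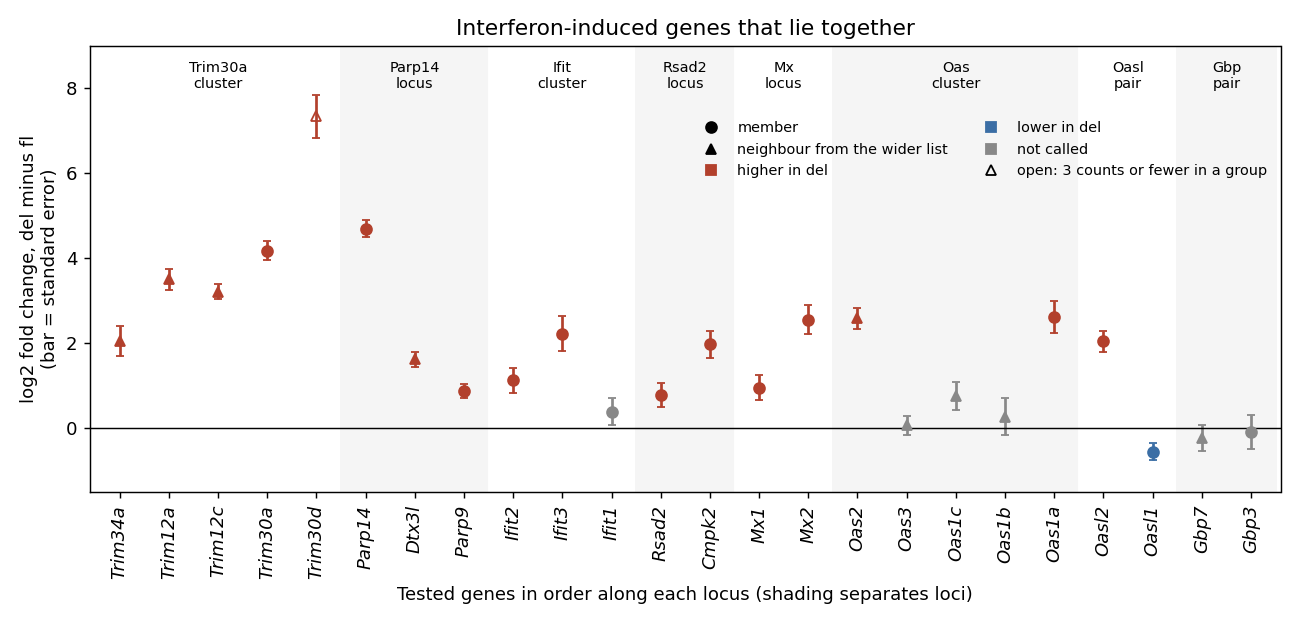
Log2 fold change (del minus fl, with standard error) of the tested genes of 8 loci in order along each chromosome, members as circles and neighbours as triangles. The 5 tested genes of the Trim30a cluster are all higher in del (Trim30d, open, rests on 2 counts in fl), whereas the Oas cluster and the Oasl pair hold genes of differing direction or outcome.

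Transcript length moved with the comparison. With tested genes divided into 5 equal bins by their longest annotated transcript, the median log2 fold change was -0.67, -0.25, -0.05, 0.32 and 0.80 (shortest to longest), and 13.3%, 20.3%, 28.5%, 41.8% and 59.7% of genes were higher in del. Of the 31 tested members with an annotated length, 8, 9, 9, 3 and 2 were in these bins. Higher in del were 3, 2, 8, 3 and 1 of them, and Mx1, also higher, had no length. The median longest transcript of these 31 was 2656 bases, against 3399 for all tested genes with a length. The list thus held shorter transcripts than the tested genes as a whole. Higher members had a median of 3548 bases and those not called 2183.5. The part of length in the members' outcome was not tested beyond these counts.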

How the data were processed

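Poly(A)-primed, strand-specific 3′ RNA-seq libraries were made from 3 del and 3 fl samples, per the labels' protocols. The authors deposited raw read counts per gene, and STAR, HTSeq and mm10 are named in the submitters' processing notes, with versions, annotation and strand setting not given in the sources used here. Of 24885 rows, 24052 carried a gene number, and 23969 of these matched a symbol in RefSeq. The deposited counts were tested with edgeR 4.0.16 (R 4.3.3, limma 3.58.1): filterByExpr by group with a minimum count of 10, TMM factors, robust quasi-likelihood F test with group as the only term, two-sided, and Benjamini-Hochberg adjustment over all 10260 genes tested at a threshold of 0.05. A called gene passed that threshold. CPM were computed from the counts with TMM-scaled totals, and standard errors of log2 fold changes come from the F statistic. Procedures were tested on simulated data in which far fewer genes were changed than were called here. Scaling when most genes differ was not covered.

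Total counts ran from 2121796 to 3738720 in del and from 6554423 to 9580630 in fl, a mean 2.65 times as deep in fl, so low genes are less precise in del. Replicate counts differed by more than sampling noise in all pairs, and no library was a duplicate. No effect shared by same-numbered libraries was seen, and whether they were handled together is not known. Named genes were all members by role and up to 4 genes of each wider list by smallest adjusted p. Dtx3l, the Trim, Oas and Oasl neighbours, Plscr1 and Ifna12 were named after their values were seen. The members and lists were chosen with earlier results of these data known. Alternatives were other scalings, other count filters, DESeq2 1.42.0, limma-voom, thinning, a replicate block and leaving out each library. Promoters come from RefSeq (GRCm38.p6), and shared 3′ ends, overlaps and transcript lengths from GENCODE for GRCm38. Without the strand setting of the counting, overlapping genes on opposite strands cannot be told apart. Ighm, Igkc, Trac, Rnf213 and Trim30c were not analysed here. Some other genes that these rules cover are not reported here.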

Additional observations from a re-analysis of the deposited data

How the results depend on the processing

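Of the 20 called members, 13 kept their call in every one of the 15 alternatives that tested them, 12 higher and Bst2 lower. The number of members higher in del was 14 to 18 in the scaling, filter, tool, thinning and block settings other than a filter of at least 10 CPM in 3 libraries, which left 17 members tested and 10 higher. It was 15 to 19 with 1 library left out. The number lower was 1 with library totals only and 1 with DESeq2, and 1 to 2 with 1 library left out. Oasl1 lost its call in these settings except without del replicate 3, and without del replicate 2 Cxcl10 was called in its place. With upper-quartile factors 3 were lower, Cxcl10 being the added one. A replicate block gave 18 higher and 2 lower members. Deviations of same-numbered libraries correlated at 0.08, -0.04 and -0.02, so no effect shared by same-numbered libraries was seen. With 3 libraries per group, these values cannot show whether such libraries were handled together. Log2 fold changes changed sign only for members that did not pass. They were -0.0094 for Irf1 with upper-quartile scaling, 0.16 for Ifih1 after thinning, and 0.0069 and 0.035 for Ifi35 with library totals and after thinning. With 1 library left out they ran from -0.0023 to 0.19 for Irf1, from -0.51 to 0.32 for Ifih1 and from -0.44 to 0.32 for Gbp3, and the cause was not tested. Calls were also lost for Ifit2 (thinned, adjusted p = 0.0572) and Ifi44 (no count filter, 0.0969), and Cxcl10 with upper-quartile scaling had a log2 fold change of -0.99 (adjusted p = 0.0445). The median of all genes moved to -0.13 with upper-quartile factors and 0.12 with DESeq2, where the members' median was 0.72 and 0.80. Depth limits the members with few counts in del most. Zbp1 had 0 and Gbp2 12, and among tested members Cxcl10, Isg15, Ifit3 and Mx2 had 21 to 38.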
